A study of Mus musculus with 6 samples.

Results

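The genes described here are 10 genes of the YAP/TEAD axis that are known to respond to cell density: Yap1 and Tead1, which encode the coactivator and a DNA-binding partner, and 8 genes known as their targets, Ccn1 (also written Cyr61), Ccn2 (Ctgf), Ankrd1, Amotl2, Lats2, Ajuba, Crim1 and Axl. They were taken as a fixed list, matched by Ensembl identifier among the 53801 genes of each count file, with no threshold on a measured value, but the list was drawn up with earlier results of these data known. All 10 were found, and 9 of the 10 had enough counts to be tested. Ankrd1 had 0 counts in every library.

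The cells were mouse neural progenitor cells (NPCs), hybrid between BL/6J and CAST-EiJ, made from embryonic stem cells in which SPEN carries an auxin-inducible degron, and their RNA was sequenced in bulk. Auxin, a plant hormone, triggers breakdown of a protein that bears this tag, and SPEN is a repressor protein that acts in X inactivation and at Notch target genes. Both subclones, clone 30 and clone 31, were sampled untreated and after 24 h and 48 h of 500 uM auxin, which gives 3 groups of 2 libraries, 1 from each clone. All 6 libraries carry the degron, and all cultures were kept on 0.1% gelatin in N2B27 supplemented with the growth factors EGF and FGF, each at 10 ng/ml, so no group lacked the tag and no group of untagged cells received auxin. Each clone is a single line and gave 1 library per time, so the p-values below measure the spread between these libraries only. The labels give no cell density at harvest.

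YAP, the product of Yap1, has no DNA-binding domain of its own and reaches genes through the TEAD family of transcription factors. The Hippo kinases LATS1 and LATS2 phosphorylate YAP and keep it in the cytoplasm, which happens in dense cultures, on soft surfaces and where cell junctions are mature. Several targets feed back on the pathway: LATS2 is a kinase of it, AMOTL2 is a junction protein that holds YAP outside the nucleus, and AJUBA binds and restrains LATS kinases. In neural progenitors YAP is known for its tie to proliferation.

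TEAD factors bind the letters GGAATG, read on either strand. RefSeq promoter sequences on GRCm38.p6 held an entry for 8 of the 10 genes, with 2 start sites for Lats2 and none for Ccn2 and Tead1. In the 250 bases before the start, GGAATG was found in 7 of the 8 genes, 9 times in all, and in neither window of Lats2. It occurred in 4153 of 32851 promoters of that length over all genes (12.642%). Since these genes are known for TEAD binding, the share is a description and carries no test. Each match is shown with 12 bases on either side, printed on the strand where it reads GGAATG and with the match in capitals, because these are the letters by which the genes were counted. Showing the sites of Ajuba, Crim1, Axl and Yap1 was decided after the matches were seen.
Ccn1, chr3:145650071-145650100, plus strand, 103 to 98 bases before the start: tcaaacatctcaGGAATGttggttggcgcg
Ankrd1, chr19:36120037-36120066, minus strand, 210 to 205 bases before the start: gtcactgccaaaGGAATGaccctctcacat
Ankrd1, chr19:36119950-36119979, minus strand, 123 to 118 bases before the start: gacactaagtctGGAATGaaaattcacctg
Amotl2, chr9:102717727-102717756, minus strand, 65 to 60 bases before the start: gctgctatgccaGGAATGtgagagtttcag
Ajuba, chr14:54577830-54577859, plus strand, 186 to 181 bases before the start: gaggggcactgtGGAATGtatccatcaacg
Ajuba, chr14:54577808-54577837, plus strand, 164 to 159 bases before the start: ttgtttacagttGGAATGcgcggaggggca
Crim1, chr17:78200157-78200186, plus strand, 79 to 74 bases before the start: agggcgggggggGGAATGaggtaggatggg
Axl, chr7:25788949-25788978, minus strand, 233 to 228 bases before the start: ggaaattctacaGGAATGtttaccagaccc
Yap1, chr9:8004720-8004749, minus strand, 141 to 136 bases before the start: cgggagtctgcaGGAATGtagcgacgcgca

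The other motifs searched on both strands of these windows were TGANTCA, bound by AP-1 (a frequent partner of TEAD at enhancers), and the CArG box of SRF. Neither was found in any of the 8 genes, against 6.749% and 1.467% of all promoters. With neither found, no GGAATG match could overlap another motif in these genes. In the GENCODE annotation of GRCm38, exons with UTRs overlap 250 bases of the Ankrd1 window and 136 of the Amotl2 window, exons overlap 28 bases for Crim1 and 17 for Yap1, and the other windows hold no exon. A missing match says only that the letters are not in this window.

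**Figure D1:**
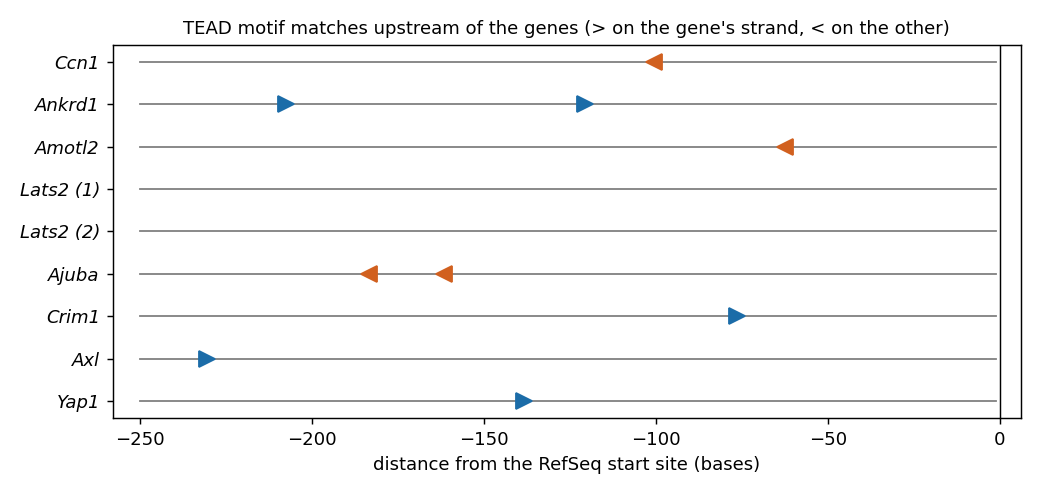
Position of each GGAATG match in the 250 bases before the RefSeq start site, 1 row per start site of the 8 genes with an entry; the x axis is the distance from the start in bases, and arrowheads point right for a match on the strand of the gene and left for one on the other strand. Ankrd1 and Ajuba have 2 matches each, and both Lats2 rows are empty.

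Total counts ran from 24603816 (untreated, clone 30) to 43008978 (24 h, clone 31), so that 3 counts, the limit a count of 0 allows, stood for 0.122 down to 0.0698 CPM (counts scaled to a common library size). CPM values below also carry TMM, edgeR's correction for library composition. NPC markers summed to 4179 to 5602 CPM over the libraries, with Sox2, Pax6, Msi1 and Vim among the 8 of 9 at 1 CPM or more in some library, and Sox1 was near 0. The other marker lists were checked in the same way. Oligodendrocyte markers summed to 2080 to 2795 CPM over the libraries, astrocyte markers to 872 to 1558 CPM and neuron markers to 719 to 1131 CPM. Endothelial markers summed to 6.50 to 23.1 CPM and microglia markers to at most 1.20 CPM. Of 5 pluripotency markers, Pou5f1, Zfp42 and Dppa3 were at 0 in every library. Nanog and Esrrb had counts and brought that list to 4.86 to 7.49 CPM. Endoderm markers summed to at most 0.308 CPM. Mesenchymal markers summed to 24.1 to 25.6 CPM in clone 30 and to 117 to 159 CPM in clone 31. Spen RNA went from 92.4 and 116 CPM untreated to 174 and 218 CPM at 24 h and 200 and 259 CPM at 48 h in clones 30 and 31. Auxin removes the tagged protein, and depletion cannot be read from RNA.

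Per kilobase of exon, the level of the 10 genes spanned from 0 to 23.2 CPM per kb over the 6 libraries. Tead1 (23.2 ± 2.11 CPM per kb, SD over 6 libraries) and Yap1 (22.9 ± 2.05) stood first. Axl followed at 18.1 ± 5.62, Crim1 at 11.3 ± 2.90, Amotl2 at 8.32 ± 5.53 and Ajuba at 7.83 ± 1.84 CPM per kb. The classic reporter targets were low: Ccn1 at 3.89 ± 1.24, Ccn2 at 1.03 ± 0.891 and Ankrd1 at 0. Over its full exon length Lats2 lay between the CCN genes at 2.92 ± 0.128 CPM per kb. Ranges of neighbours in this order overlapped from Tead1 down to Lats2, so no adjacent pair among those 8 genes is set apart beyond its spread. Genes further apart can be: every Tead1 and Yap1 value (at least 19.7 CPM per kb) exceeded every Crim1 value (at most 14.8), and every Crim1 value (at least 6.94) exceeded every value of Ccn1 (at most 6.27) and Lats2. Ranges did not overlap between Lats2 and Ccn2 or between Ccn2 and Ankrd1. The Lats2 level is a lower estimate, since 2955 of its 6971 exon bases (42.4%) are shared on the same strand with the model Gm49361. That model had 0 counts, and the count program as run assigns no read pair to 2 genes. Over the 4016 unshared bases Lats2 stood at 5.07 CPM per kb, above the Ccn1 mean. Its place below Ccn1 thus holds only for the full exon length.

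Spread over the libraries also differed between the genes. The highest library exceeded the lowest by 11.7 times for Ccn2 and by 5.0 times for Amotl2. The ratio was 2.12 to 2.18 for Ccn1, Crim1, Axl and Ajuba, and 1.12, 1.24 and 1.29 for Lats2, Tead1 and Yap1. The 24 h library of clone 30 was the highest of the 6 for Ccn2, Ajuba, Crim1 and Lats2, and the 48 h library of clone 31 was the highest for Amotl2, Axl and Ccn1.

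**Figure D2:**
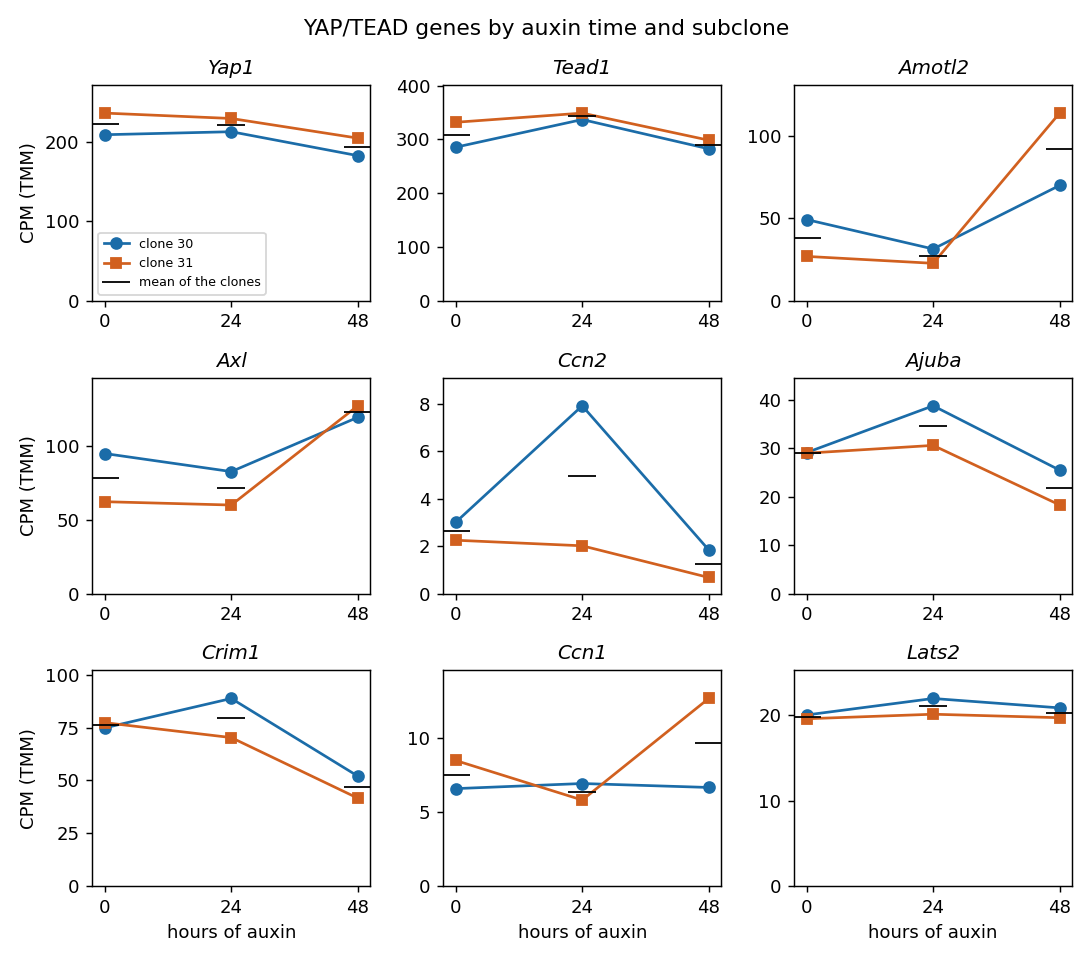
CPM (TMM) of the 9 genes with counts, on the y axis, against hours of auxin on the x axis; circles are clone 30, squares clone 31, and black bars the mean of both, with 1 library per point. Amotl2 and Axl end higher at 48 h than at 24 h in both clones, Ccn2, Ajuba and Crim1 end lower, and Yap1, Tead1 and Lats2 stay within 1.29-fold over all libraries.

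Whether 24 h of auxin changes these genes was asked first. It left no gene of the list past the threshold, an adjusted p of 0.05 over all 16007 genes tested in edgeR's quasi-likelihood fit. None of the 9 genes was called on treatment group alone, where 0% of all genes were called, nor with the clone as a block, where again 0% were. At an unadjusted p under 0.05 the fits held 240 and 988 of all genes, and none of the 9. DESeq2 called 6 genes on treatment group alone and 41 with the block, and none of the 9. Log2 changes with the block ran from -0.47 ± 0.35 (SE) for Amotl2 to 0.65 ± 0.38 for Ccn2, with edgeR adjusted p-values of 0.861 to 0.994, and their median was 0.05, beside 0.01 for all genes. In bulk RNA, fewer cells that express a gene and less RNA per cell cannot be told apart, here or below.

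At 48 h calls in the list went in both directions, as did the calls over all genes. With the clone as a block, 2 of the 9 genes were called against untreated, where 17.4% of all genes were: Axl rose (higher calls were 8.35% of all genes) and Crim1 fell (lower calls were 9.08%). Against 24 h, 5 of the 9 were called, where 26.1% of all genes were: Axl and Amotl2 rose (12.3% of all genes) and Ccn2, Ajuba and Crim1 fell (13.9%). With 9 genes, the first of these shares is near that of all genes. The median log2 change of the 9 was -0.08 against untreated and -0.19 against 24 h, beside 0.02 and 0.03 for all genes. Members of 1 list went both ways, so the median says little of any of them. Some markers of other cell types moved at 48 h as well. Of 6 astrocyte markers tested 3 rose (median log2 change 1.0, summed 872 to 1327 CPM untreated and 1479 to 1558 CPM at 48 h). Of 5 oligodendrocyte markers 2 rose (median 1.51), while that list summed to 2080 to 2602 CPM untreated and 2456 to 2795 CPM at 48 h. The part of these markers in the changes of the listed genes was not tested. The 3 comparisons share libraries, the untreated ones or those at 24 h or 48 h, and are not independent of each other.

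These calls depend on the block. On treatment group alone edgeR called 0% of all genes in both 48 h comparisons (3311 and 3997 genes at an unadjusted p under 0.05, among them 3 and 4 of the 9), while DESeq2 on treatment group alone called 1669 genes with Amotl2 and Crim1 among them against untreated, and 2530 with Axl, Amotl2, Ajuba and Crim1 among them against 24 h. Against untreated, both blocked calls were lost when the untreated clone 31 library was left out (edgeR adjusted p = 0.276 for Axl and 0.144 for Crim1), without the 24 h library of clone 30 (0.0824 and 0.0527) or of clone 31 (0.0799 and 0.0504), and in a fit of the 4 libraries compared (0.0946 and 0.069). Against 24 h, all 5 calls held in the fit of 4 libraries and without either untreated library, and none held without either 24 h library, when edgeR called 0 and 3 genes in all.

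**Figure D3:**
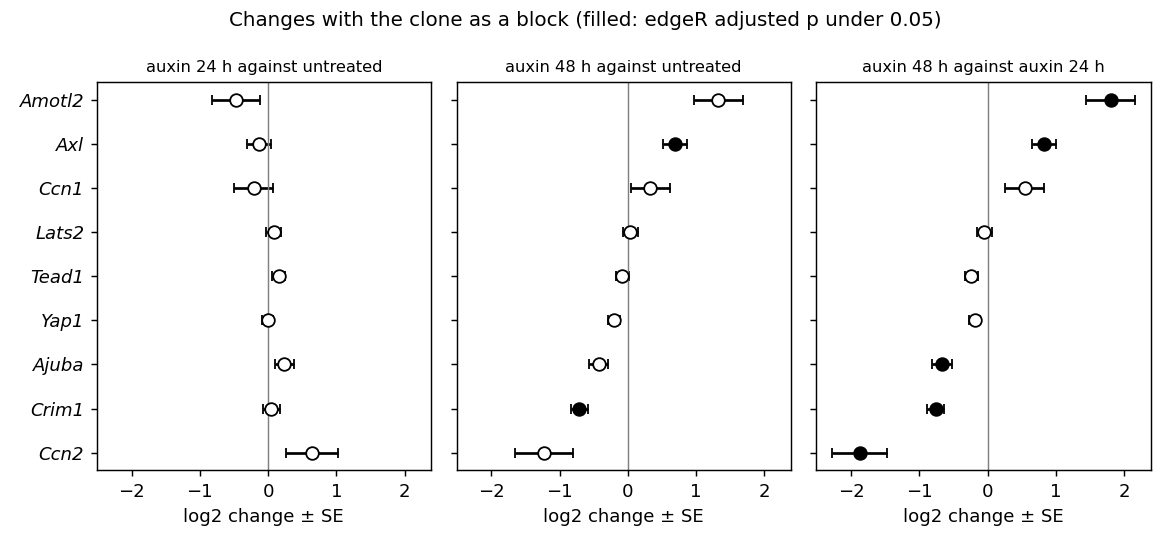
Log2 change (x axis) of the 9 genes in the 3 comparisons with the clone as a block, with bars of 1 standard error; filled points passed an edgeR adjusted p of 0.05. No point is filled at 24 h, 2 are at 48 h against untreated, and 5 are at 48 h against 24 h.

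The coactivator and its partner passed in no auxin comparison. Yap1 (ENSMUSG00000053110, chr9:7931999-8004596) stood at 209 and 236 CPM untreated, 212 and 229 CPM at 24 h, and 182 and 204 CPM at 48 h in clones 30 and 31. Both 48 h libraries lay below the other 4, by a small margin in clone 31. The blocked log2 change of Yap1 was -0.20 ± 0.09 at 48 h against untreated (edgeR adjusted p = 0.149) and -0.01 at 24 h.

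Tead1 (ENSMUSG00000055320, chr7:112679318-112906807) stood at 286 and 332 CPM untreated, 337 and 349 CPM at 24 h, and 283 and 299 CPM at 48 h. Untreated and 48 h libraries overlapped, and both 24 h libraries lay above all others. With the block Tead1 gave a log2 change of 0.15 ± 0.10 at 24 h (edgeR adjusted p = 0.874), of -0.08 ± 0.10 at 48 h (0.560), and of -0.24 ± 0.10 between the times (0.114).

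Lats2 (ENSMUSG00000021959, chr14:57689662-57758388), both a kinase of YAP and a target, was the steadiest gene of the list. It stood at 20.0 and 19.6 CPM untreated, 22.0 and 20.1 CPM at 24 h, and 20.9 and 19.7 CPM at 48 h. All 6 values lay within 1.12-fold, and the groups overlapped. With the block, 48 h differed from untreated by a log2 of 0.03 ± 0.11 (edgeR adjusted p = 0.856) and from 24 h by -0.05 (0.735), the latter turning to 0.028 under upper-quartile scaling.

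Among the targets that ended higher, Amotl2 (ENSMUSG00000032531, chr9:102716672-102733418), the angiomotin-like junction protein, had the largest log2 change. Untreated libraries held 49.2 CPM in clone 30 and 26.9 CPM in clone 31. At 24 h both were lower, at 31.4 and 22.7 CPM. At 48 h they reached 69.9 and 114 CPM, above every library of the other groups.

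Over the clones Amotl2 averaged 38.1 ± 15.8 CPM (SD, n = 2) before auxin, 27.1 ± 6.14 CPM after 24 h and 91.8 ± 30.98 CPM after 48 h. From 24 h to 48 h the blocked log2 change was 1.80 ± 0.36, which passed (edgeR adjusted p = 0.0227, and 0.0900 on treatment group alone). Against untreated it was 1.33 ± 0.36 and did not pass (0.0564, and 0.174 on treatment group alone), though DESeq2 called it in both designs and edgeR called it under the block with total counts (0.0489). With 1 library left out, which leaves 1 in that group, the log2 change was 1.82 without untreated clone 30 and 0.81 without untreated clone 31. It was 1.99 without clone 30 at 48 h, 0.58 without clone 31 at 48 h and 1.29 without either 24 h library. Against 24 h, leaving out clone 31 at 48 h brought it to 1.04. The clones differed in size: from untreated to 48 h Amotl2 went up 1.42-fold in clone 30 and 4.22-fold in clone 31. With 1 library per clone and time, that difference has no test.

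Axl (ENSMUSG00000002602, chr7:25757273-25788705) encodes a receptor tyrosine kinase for GAS6. It stood at 95.0 and 62.3 CPM untreated, 82.7 and 60.0 CPM at 24 h, and 120 and 127 CPM at 48 h. The 2 libraries at 48 h were close to each other and above all others, while clone 31 was the lower of the clones at both earlier times. The means were 78.6 ± 23.1 CPM (SD, n = 2) untreated and 123 ± 5.53 CPM at 48 h.

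The blocked log2 change of Axl was 0.69 ± 0.18 against untreated (edgeR adjusted p = 0.0486, and 0.231 on treatment group alone) and 0.82 ± 0.17 against 24 h (0.0255, and 0.139). Leaving out untreated clone 31, which leaves clone 30 alone in that group, brought the first of these to 0.47. Leaving out clone 31 at 48 h, with clone 30 alone there, brought the changes to 0.35 and 0.48. In clone 30 Axl at 48 h was 1.26 times its untreated level, and in clone 31 it was 2.04 times.

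Among the targets that ended lower, Ccn2 (ENSMUSG00000019997, chr10:24595442-24598683), a secreted matricellular protein and the usual reporter of YAP activity, had few counts. Its counts in clones 30 and 31 were 75 and 90 before auxin, 317 and 85 after 24 h, and 57 and 18 after 48 h, which is 3.01 and 2.25 CPM, 7.93 and 2.02 CPM, and 1.84 and 0.68 CPM. The 24 h library of clone 30 stood apart from the other 5, and both 48 h libraries were the lowest of their clone and of all 6. On the other strand Gm15270 covers 665 of its exon bases (23.2%), with 27 counts in all libraries together against 642 for Ccn2.

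Ccn2 had a blocked log2 change of -1.88 ± 0.41 from 24 h to 48 h (edgeR adjusted p = 0.0268, and 0.203 on treatment group alone). Leaving out clone 30 at 24 h brought it to -1.21 (adjusted p = 0.212), and it also missed the threshold without the 48 h library of clone 30 (0.0753) or of clone 31 (0.0554). Against untreated it was -1.23 ± 0.43 (0.0963). Leaving out clone 30 untreated gave -1.96 and leaving out clone 31 untreated gave -0.59, each with a single clone left in that group. At 24 h the clones went apart, with Ccn2 at 2.63 times its untreated level in clone 30 and 0.896 times in clone 31.

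Crim1 (ENSMUSG00000024074, chr17:78200248-78376592) encodes a membrane protein that binds bone morphogenetic proteins. It stood at 74.8 and 77.3 CPM untreated, 88.7 and 70.3 CPM at 24 h, and 52.1 and 41.6 CPM at 48 h. The 48 h libraries were below all 4 others. Means were 76.1 ± 1.73 CPM (SD, n = 2) untreated and 46.8 ± 7.37 CPM at 48 h.

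With the clone as a block, Crim1 had the smallest edgeR adjusted p of the 9 genes in both 48 h comparisons. Its blocked log2 change was -0.71 ± 0.12 against untreated (edgeR adjusted p = 0.0270, and 0.146 on treatment group alone) and -0.76 ± 0.12 against 24 h (0.0172, and 0.0907). Between 24 h and 48 h it went to 0.587 times in clone 30 and 0.593 times in clone 31.

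Ajuba (ENSMUSG00000022178, chr14:54567472-54577558), the LIM protein that restrains LATS kinases, stood at 29.1 and 29.0 CPM untreated, 38.8 and 30.6 CPM at 24 h, and 25.5 and 18.3 CPM at 48 h. Again the 48 h libraries were the lowest, and the untreated ones nearly coincided. The blocked log2 change was -0.67 ± 0.14 from 24 h to 48 h (edgeR adjusted p = 0.0250, and 0.136 on treatment group alone). Against untreated it was -0.43 ± 0.14 and did not pass (0.0865), except when the 48 h library of clone 30 was left out (-0.57, 0.0102). Without untreated clone 31 it was -0.23 (0.514).

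Ccn1 (ENSMUSG00000028195, chr3:145646976-145649981), the close relative of Ccn2 that is also secreted into the matrix, did not follow it. It stood at 6.58 and 8.48 CPM untreated, 6.93 and 5.81 CPM at 24 h, and 6.66 and 12.7 CPM at 48 h, from 164 to 339 counts. Clone 30 was level over time, and 1 library, clone 31 at 48 h, was higher than the rest. The blocked log2 change was 0.33 ± 0.28 against untreated (edgeR adjusted p = 0.442) and 0.54 ± 0.28 against 24 h (0.200). Without the 48 h library of clone 30, which leaves clone 31 alone at that time, the changes were 0.73 and 0.99. Without the 48 h library of clone 31 they were -0.19 and 0.075, and without clone 31 at 24 h the second was 0.088.

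Ankrd1 (ENSMUSG00000024803, chr19:36111965-36119844), a nuclear ankyrin-repeat protein known best from heart and vessel, had 0 counts in all 6 libraries. At this depth a level of up to 0.122 CPM in the smallest library could have been missed. Nothing can be said of its change or of genes with a like pattern.

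The clones were compared within each time. From untreated to 48 h the change was larger in clone 31 than in clone 30 for 8 of the 9 genes, with Lats2 the exception. For Yap1 the margin was small, at a log2 of -0.21 in clone 31 and -0.19 in clone 30. The share of all genes with a larger change in clone 31 was not counted, but all genes also spread more widely there. The quartiles of log2 change over all genes tested were -0.24 and 0.29 in clone 30 and -0.36 and 0.43 in clone 31. No difference between the clones' changes was tested, since each rests on 1 library per clone and time.

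**Figure D4:**
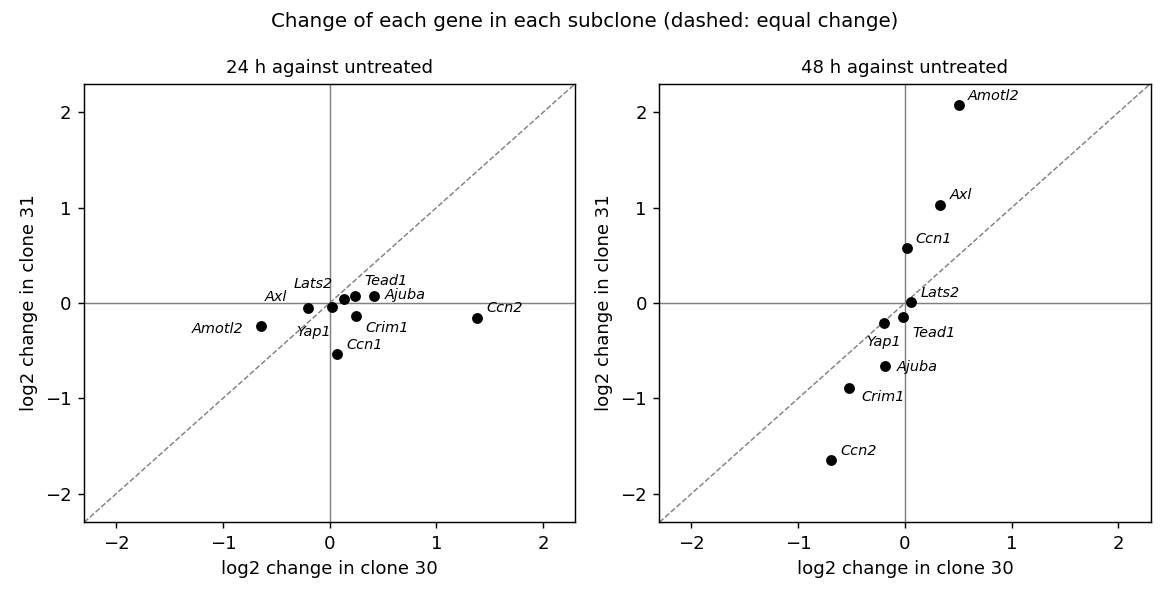
Log2 change of each of the 9 genes in clone 30 (x axis) against that in clone 31 (y axis), at 24 h (left) and 48 h (right) against untreated, 1 library per clone and time; the dashed line marks equal change. Ccn2 lies far to the right at 24 h, at 1.38 in clone 30 and -0.15 in clone 31, and at 48 h Amotl2 and Axl lie in the upper right while Crim1, Ajuba and Ccn2 lie in the lower left.

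Levels were then compared between the clones over all 3 times, with treatment group and clone as terms. None of the 9 genes was called by edgeR, where 16.2% of 15492 genes were (7.58% higher and 8.58% lower in clone 31). At an unadjusted p under 0.05 the fit held 4983 of all genes and 1 of the 9. That gene was Ccn2, lower in clone 31 at each time, with a log2 difference of -1.29 ± 0.33 (edgeR adjusted p = 0.0531). DESeq2 called it (adjusted p = 0.00572), and so did edgeR under upper-quartile scaling (0.0445), total counts (0.0459) and no filter (0.0259). Without either 24 h library, whose partner then says nothing of the clones, the difference was -0.85 (0.276 and 0.291), and with either untreated library left out it was -1.79 (0.00876 and 0.00915).

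Without either 48 h library Axl (-0.55, edgeR adjusted p = 0.00112 and 0.000868) and Amotl2 (-0.68 and -0.69, 0.0021 and 0.00158) were called lower in clone 31 as well, in fits that called 30.8% and 30.9% of all genes. At 48 h the order of the clones was the other way for both. The mesenchymal marker sums given above moved with the clone in all 3 groups. In the fit of all 6 libraries, 7.58% of all genes were called higher and 8.58% lower in clone 31. There 5 of 7 mesenchymal markers were called higher in clone 31. Of 6 astrocyte markers 3 were called lower in clone 31 (median log2 -0.92), as were 1 of 8 NPC and 1 of 4 neuron markers. Endothelial and oligodendrocyte markers each gave 1 call in either direction. The part of these markers in the differences above was not tested.

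Other genes of the pathway were read from lists. Of 15 further YAP/TEAD targets 14 were tested, and with the block 4 rose and 1 fell at 48 h against untreated, where 8.35% and 9.08% of all genes did, with a median log2 change of -0.22 beside 0.02 for all genes. Igfbp3, a binding protein of insulin-like growth factors, was at 861 and 677 CPM untreated in clones 30 and 31, 847 and 559 CPM at 24 h, and 430 and 236 CPM at 48 h. Both 48 h libraries were below the rest, and the log2 change was -1.26 ± 0.15 (edgeR adjusted p = 0.0238).

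The 4 that rose were Fjx1 (0.71 ± 0.11, edgeR adjusted p = 0.0245), F3 (0.78 ± 0.16, 0.032), the tissue factor that starts coagulation, Nuak2 (0.97 ± 0.22, 0.0388), a kinase, and Nt5e (1.0 ± 0.23, 0.0405), the ectoenzyme CD73. Fjx1 was the most abundant of them, at 83.5 and 91.8 CPM untreated and 127 and 161 CPM at 48 h, and the other 3 stayed at or under 21.9 CPM. Over the 13 fits with the block, Igfbp3 and Fjx1 were called in 11, F3 in 9 and Nuak2 in 8, with edgeR or DESeq2 adjusted p-values of up to 0.0818, 0.125, 0.206 and 0.237. Nt5e falls outside the rule for named genes and was added to complete the count, and the alternatives were not run on it.

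Among 21 Hippo kinases and adaptors, 3 rose and 4 fell at 48 h against untreated with the block, beside 17.4% of all genes called in either direction, at a median of -0.20. Fat4 and Fat1, giant cadherins upstream of the pathway, and Amot, the founding angiomotin, rose by 0.93 ± 0.09, 0.54 ± 0.12 and 0.55 ± 0.12 (edgeR adjusted p = 0.0238, 0.0356 and 0.0342). Amotl1, the third angiomotin, went from 254 and 469 CPM untreated to 185 and 221 CPM at 48 h, a log2 change of -0.78 ± 0.16 (0.0334). Of the 3 angiomotins, edgeR with the block thus called Amot higher and Amotl1 lower against untreated, and Amotl2 higher against 24 h. Amot, Amotl1 and Wwc1 were each called in 9 of the 13 fits with the block and Fat4 in 11, with adjusted p-values of up to 0.240, 0.166, 0.148 and 0.0931.

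Wwc1, the scaffold KIBRA, went from 68.0 and 116 CPM to 47.2 and 69.3 CPM (log2 -0.64 ± 0.10, edgeR adjusted p = 0.0254). Frmd6, a FERM-domain adaptor, and Wtip, a LIM protein of the Ajuba family, also fell, by 0.83 ± 0.18 and 0.62 ± 0.14 (0.037 and 0.039). Lats1, the partner kinase of Lats2, was at -0.10 ± 0.10 (0.523). Fat1, Frmd6, Wtip and Lats1 were named to complete the counts or to stand beside a member, after their values were seen.

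Of 7 other TEAD factors and cofactors, 6 were tested and none was called with the block at 24 h, at 48 h or between them. At 48 h against untreated 3 of the 6 had an unadjusted p under 0.05, as did 5985 of all 16007 genes. Wwtr1, which encodes TAZ, the relative of YAP, was at 108 and 110 CPM untreated and 124 and 143 CPM at 48 h (log2 0.29 ± 0.10, edgeR adjusted p = 0.0891). Tead4 was at 1.65 and 8.43 CPM untreated and 1.03 and 1.66 CPM at 48 h (log2 -1.62 ± 0.45, edgeR adjusted p = 0.0586). From untreated to 48 h it changed by a log2 of -0.64 in clone 30 and -2.31 in clone 31. Clone 31 stood above clone 30 by 2.32 untreated and by 0.65 at 48 h. Tead4 and Tead2 were called higher in clone 31 (log2 1.94 and 0.32, edgeR adjusted p = 0.0199 and 0.0335), where 7.58% of all genes were.

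Of 14 targets of SRF, the actin-responsive factor that shares genes with YAP, 13 were tested. With the block 1 was called at 48 h against untreated, where 17.4% of all genes were called and 8.35% were higher. Vcl, the focal adhesion protein vinculin, was higher at 48 h by 0.49 ± 0.12 (edgeR adjusted p = 0.0416, called in 7 of the 13 fits with the block), and the list's median was -0.03. Srf itself was at -0.47 ± 0.13 (0.0525). Of 4 other CCN family genes 3 were tested, Ccn3, Ccn4 and Ccn6, all at or under 1.35 CPM in every library, and none was called.

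**Figure D5:**
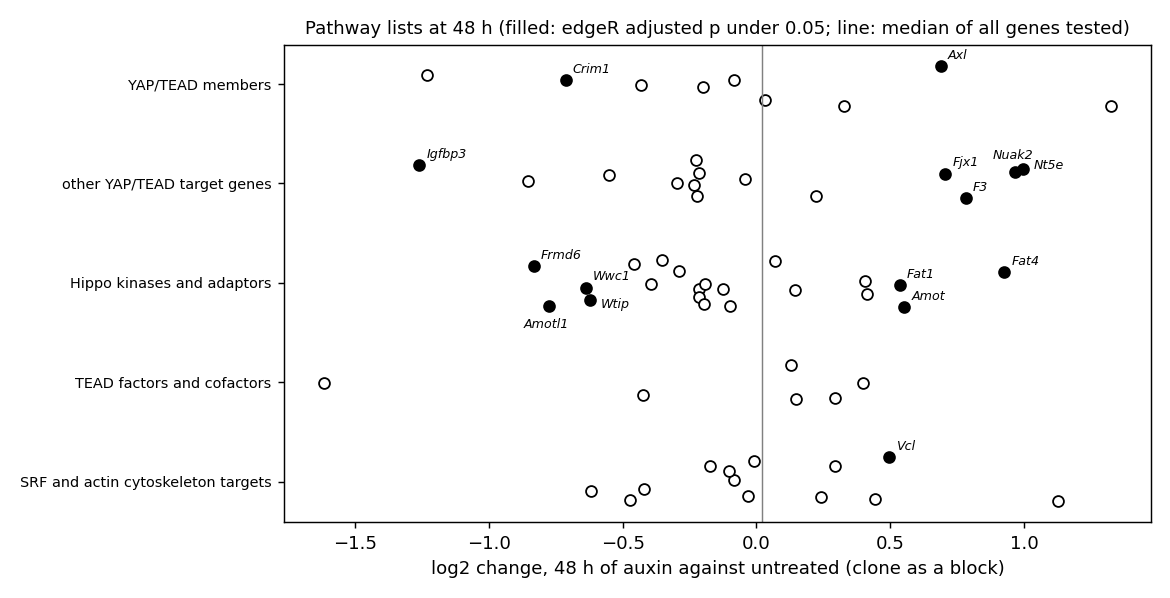
Log2 change at 48 h against untreated with the clone as a block (x axis), 1 point per gene tested in each of 5 lists (rows, with vertical jitter only to separate points); filled and named points passed an edgeR adjusted p of 0.05, and the line marks the median of all genes at 0.02. Filled points lie on both sides of the line among the listed genes, the further targets and the Hippo genes.

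From 24 h to 48 h, the further targets had 2 genes higher and 3 lower of 14 with the block, the Hippo genes 2 higher and 4 lower of 21, and the SRF list 1 higher and 2 lower of 13, beside 12.3% of all genes higher and 13.9% lower. With its usual filter and no block, edgeR called none of these list genes in an auxin comparison, and it called Srf lower from 24 h to 48 h with no filter (adjusted p = 0.04998). DESeq2 on treatment group alone called, of the genes chosen by rule, Igfbp3, Fjx1 and Srf at 48 h against untreated and Igfbp3, Amotl1 and Srf against 24 h. Between the clones, 5 of the 14 further targets were lower in clone 31 and 1 was higher, and 4 of the 21 Hippo genes were higher, beside 8.58% of all genes lower and 7.58% higher.

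Genes with a pattern most like that of Ccn1 and Ccn2 over the 6 libraries were found by the root mean square distance of centred log2 CPM among 11085 genes with at least 5 CPM on average. For Ccn1 they were Dap (0.13), Plod2 (0.13) and 1190002N15Rik (0.15), and Plod2 shows the shared shape: 240 and 232 CPM untreated, 230 and 198 CPM at 24 h, and 197 and 391 CPM at 48 h in clones 30 and 31. For Ccn2 they were Itga8 (0.20), Tnfrsf10b (0.28) and Rgs7bp (0.28). Itga8 held 32.6 and 21.3 CPM untreated, 58.5 and 21.0 CPM at 24 h, and 20.5 and 7.76 CPM at 48 h, and since it was chosen for its likeness to Ccn2, its high 24 h value in clone 30 is no separate result. Ranked by Pearson r in place of distance, the nearest were Mnat1, Ntan1 and Ppp4r3b for Ccn1 and Ttll7, Itga8 and Elovl4 for Ccn2, so Itga8 alone was named by both measures. The 6 points share 2 clones and 3 times, and these are descriptions.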

How the data were processed

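Per the labels' protocols, TruSeq RNA kit v2 libraries were sequenced in read pairs of 100 bases. Per the file headers, the authors counted read pairs over exons (raw counts per gene) with featureCounts 1.6.1 under strand setting 2 on Ensembl release 92 for GRCm38 (mm10), and exon lengths stand beside them. Of 53801 identifiers 53620 matched a symbol. The genes and all lists were chosen with earlier results of these data known.

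The test was edgeR 4.0.16 (R 4.3.3): quasi-likelihood with robust spread, TMM, filterByExpr, 2-sided and Benjamini-Hochberg adjusted, on all 6 libraries with treatment group alone as the designed term (16007 genes). A fit that adds the clone as a block stands beside it. Libraries of one number share a subclone, per the titles, and their deviations from group means correlated at 0.80, 0.58 and 0.71 over genes. The biological coefficient of variation fell from 0.271 to 0.121 on adding the block, which left 2 residual degrees of freedom in place of 3. An SE is the size of the log2 change over the root of its F statistic. Named genes were the 10 listed, up to 4 per other list by smallest blocked p at 48 h, and the 3 nearest in pattern to Ccn1 and Ccn2. Scripts were tested on simulated data. Alternatives were other scalings, a filter at 1 CPM in 2 libraries or none, DESeq2 1.42.0, fits of 4 libraries, and leaving out each library. Floors cover counting error only.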

Additional observations from a re-analysis of the deposited data

Results flagged for a closer look

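Of 27 changes examined (9 genes in 3 comparisons), 5 went opposite ways in the 2 clones, 4 of them at 24 h. The share of all genes that went opposite ways was not counted. With 1 library per clone and time, none of these differences was tested. At 24 h against untreated Ccn2 changed by a log2 of 1.38 in clone 30 and -0.15 in clone 31, from 75 to 317 counts and from 90 to 85. Over the same interval Ccn1 gave 0.073 and -0.54, Crim1 0.25 and -0.14, and Yap1 0.026 and -0.042. From 24 h to 48 h Ccn1 gave -0.056 in clone 30 and 1.12 in clone 31. Both values of Yap1 lie inside the quartiles of all genes at 24 h, which were -0.17 and 0.17 in clone 30 and -0.12 and 0.12 in clone 31, as does the Ccn1 value of clone 30.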

How the results depend on the processing

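Each clone gave 1 library per time, so the calls rest on 3 residual degrees of freedom on treatment group alone and 2 with the clone as a block, and edgeR called none of the 9 genes in an auxin comparison on treatment group alone under any other scaling, a filter at 1 CPM in 2 libraries or the 4 libraries compared. Depth limits Ccn2, at 18 counts in its lowest library, and Ankrd1. The scalings and the filter together with the block, and the 4 libraries with the block, were chosen after seeing the data.

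Against treatment group alone, the replicate block took the genes called from 0 to 2790 at 48 h against untreated and to 4185 against 24 h, and the members called from 0 to 2 and 5. With the block these counts were 2811 and 4203 genes with DESeq2 size factors (2 and 5 members), 2756 and 4275 with upper-quartile scaling (2 and 5), 2585 and 4039 with total counts (3 and 5) and 2692 and 3971 with the filter at 1 CPM (2 and 5). In the 4 libraries compared the block called 140 genes at 24 h, 3 at 48 h against untreated and 4156 against 24 h (0, 0 and 5 members). With no filter and treatment group alone 216 and 833 genes were called at 48 h, with Crim1 as the 1 member against 24 h. DESeq2 on treatment group alone called 6, 1669 and 2530 genes (0, 2 and 4 members) and with the block 41, 3357 and 4271 (0, 4 and 5). Upper-quartile scaling moved the median of all genes from 24 h to 48 h to 0.11, where 2549 rose and 1726 fell with the block, against 1961 and 2224, and the same 5 members were called; Lats2 turned to 0.028 there with and without the block.

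Leaving out 1 library, with or without the block, gave 0 to 263 genes called at 24 h, 0 to 6615 at 48 h against untreated (0 to 5 members) and 0 to 7449 against 24 h (0 to 5 members). Log2 changes at 24 h then spanned 0 for Ccn1 (-0.68 to 0.22), Ccn2 (-0.37 to 1.59), Amotl2 (-0.92 to 0.090), Crim1 (-0.13 to 0.24), Axl (-0.41 to 0.20) and Yap1 (-0.093 to 0.085). At 48 h against untreated they did so for Ccn1 (-0.19 to 0.76), Lats2 (-0.0061 to 0.064), Tead1 (-0.20 to 0.023), Tead2 (-0.037 to 0.31) and Myl9 (-0.095 to 1.07), and against 24 h for Lats2 (-0.12 to 0.0041) and Tead2 (-0.15 to 0.22). Amotl2, Axl, Ccn2, Ajuba and Crim1 kept their direction in all 13 blocked fits of each 48 h comparison. So did Yap1 and Tead1, which none of these fits called, and the fits share libraries.

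Between the clones, upper-quartile scaling, total counts, no filter and DESeq2 each called 1 member, Ccn2. Total counts split all calls into 910 higher and 1609 lower in clone 31, against 1174 and 1329, and turned Wwtr1 to -0.0018. With no replicate block, the clone as the only term, 566 genes were called and Amotl2 turned to 0.11. Leaving out 1 library gave 696 to 4978 genes and 0 to 3 members, with Amotl2 at -0.69 to 0.13, Wwtr1 at -0.029 to 0.12 and Srf at -0.026 to 0.17. The cause of these changes was not tested.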
